A study of Homo sapiens with 8 samples.

Results

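Nucleotide excision repair cuts a short single-stranded stretch out of DNA around a bulky lesion, such as one made by ultraviolet light, and fills the gap. The genes described here are the 34 whose products find such lesions, open the DNA around them, make the incisions, coat the exposed strand and load the clamp for the filling polymerase. They were taken by gene symbol from a fixed list, and all 34 were found among the 21059 genes of the expression table. RNA was sequenced from MDA-MB-157, an established human breast carcinoma line recorded as estrogen receptor negative, after 48 h in low glucose (5 mM, 4 libraries) or high glucose (25 mM, 4 libraries). The labels name no other treatment or genetic change, so every comparison is one of a single line under 1 change of medium. According to the study's methods, the medium held no serum and the cells were first kept at the low glucose level. No library with an osmotic control sugar was among the 8, so the effect of glucose and that of solute concentration cannot be told apart. The study used mannitol as such a control in assays of proliferation and migration, and reports no differences there with and without it.

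In global genome repair, XPC with RAD23B and CETN2 scans the whole genome, helped at ultraviolet lesions by a ubiquitin ligase made of DDB1, DDB2, a CUL4 scaffold and RBX1. In transcription-coupled repair, a stalled RNA polymerase is the signal, and ERCC6 (CSB), ERCC8 (CSA), UVSSA and XAB2 act on it. Both routes call in TFIIH, a complex that is also a general transcription factor of RNA polymerase II. Its helicases ERCC2 (XPD) and ERCC3 (XPB) unwind the DNA, XPA verifies the damage, RPA covers the intact strand, ERCC5 (XPG) and the dimer of ERCC1 and ERCC4 (XPF) cut on either side, and RFC loads the PCNA clamp.

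The libraries held an estimated 9719000 to 12480000 reads, and values are given in counts per 1000000 reads (CPM) as the authors scaled them. The members' counts were far above the level of 3 reads, which was 0.212 to 0.267 CPM. The lowest was an estimated 98 reads, for GTF2H2 in high glucose replicate 2, with a counting error of 10.1%, and the highest was 3814 reads, for CUL4B in low glucose replicate 4, with 1.62%. ESR1, the estrogen receptor gene, was at 0 to 0.17 CPM and PTPRC, a blood cell marker, at 0 to 0.18 CPM, both under that level, while VIM was at 2856 to 4116 CPM and KRT18 at 156 to 238 CPM. PGR, the progesterone receptor gene, was above that level at 4.33 to 5.95 CPM. PECAM1, an endothelial marker, was above it too, with a mean of 1.0 CPM in low and 2.13 CPM in high glucose. ERBB2 was at 35.7 to 65.0 CPM, KRT8 at 76.4 to 138 CPM and EPCAM at 3.93 to 7.62 CPM. High glucose replicate 1 stood apart from the other 3 libraries of its group. Its deviation from them was correlated with transcript length across 11223 genes (Spearman's rho -0.65, a description across genes, which are not independent replicates), against 0.25, 0.34 and 0.47 for replicates 2, 3 and 4 and -0.13 to 0.06 in low glucose. Results that change without it are given both ways. In a bulk sample, fewer cells that express a gene and less RNA of it per cell cannot be told apart.

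The genes of the pathway did not move in 1 direction. Of the 34, 23 (67.6%) passed an adjusted p of 0.05 between high and low glucose, 11 higher and 12 lower in high glucose, by limma on log2(CPM + 1) with Benjamini-Hochberg adjustment over all genes. Of all 21059 genes 46.8% passed (22.0% higher and 24.8% lower), and of the 11297 genes with a mean of at least 5 CPM, a level that every member reached, 66.9% passed (33.6% higher and 33.3% lower). The share of members was therefore close to that of genes of similar abundance. The libraries of both groups did not overlap for 22 members (64.7%), against 44.5% of all genes and 65.0% of those of at least 5 CPM. The median log2 change of the members was -0.02 and their median absolute change 0.29, beside -0.01 and 0.35 for genes of at least 5 CPM and -0.01 and 0.25 for all genes. By role, damage recognition and verification had 2 genes higher and 7 lower of 13 (median log2 change -0.17), TFIIH had 4 higher and 2 lower of 10 (median -0.02), the nucleases had 0 higher and 2 lower of 3 (median -0.29), and RPA with RFC had 5 higher and 1 lower of 8 (median 0.18). The classes were not tested against each other.

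**Figure D1:**
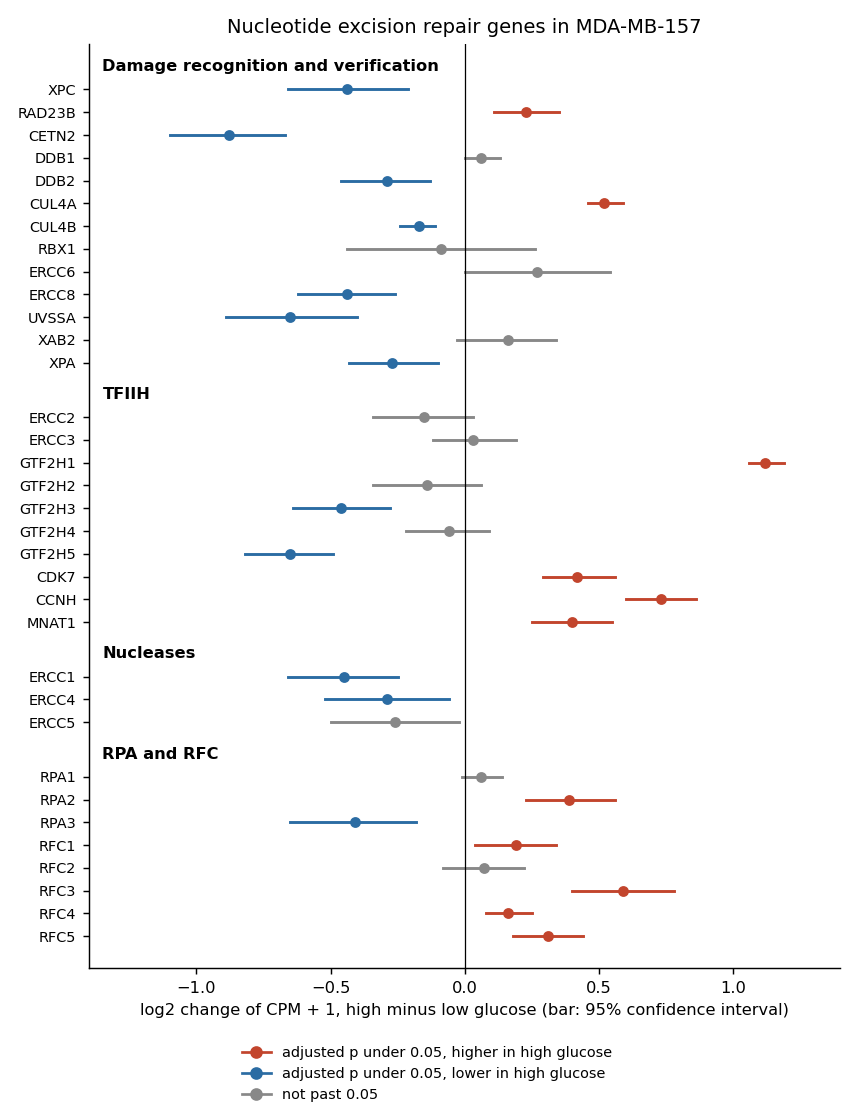
The log2 change of each of the 34 genes (point) with its 95% confidence interval (bar), high minus low glucose on log2(CPM + 1), 4 libraries in each group, by role and coloured by whether the adjusted p was under 0.05. GTF2H1 at 1.12 and CETN2 at -0.88 are the extremes, most recognition genes lie left of 0, and the RFC subunits lie right of it.

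Among the genes of global genome recognition, 2 of 8 were higher and 4 lower, 75.0% called beside 66.9% of genes of at least 5 CPM. CETN2, centrin 2, a calcium-binding protein of the centrosome that stabilizes XPC, had the largest fall of all members. Its gene lies on chromosome X at 152826994 to 152830757, minus strand (RefSeq positions, GRCh38.p14, as for all genes below). It measured 40.0, 42.6, 40.4 and 42.2 CPM in low glucose replicates 1 to 4 and 26.5, 19.3, 22.0 and 20.4 CPM in high glucose replicates 1 to 4. Every high glucose library was well under every low glucose library. The mean fell by 46.6%, from 41.3 ± 1.31 to 22.1 ± 3.18 CPM (SD, n = 4), a log2 change of -0.88 (SE 0.09, adjusted p = 0.000219).

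XPC, the DNA-binding lesion sensor itself (chromosome 3, 14145147 to 14178601, minus strand), moved the same way. Low glucose libraries held 24.2, 27.8, 25.3 and 24.6 CPM of it, and high glucose libraries 15.8, 17.9, 19.1 and 21.8 CPM. The groups did not overlap, with high glucose replicate 4 the nearest to low glucose and replicate 1 the lowest. The log2 change was -0.44 (SE 0.10, adjusted p = 0.00768). The annotation places antisense transcripts across XPC exons, and since the strand was not established for the counting, reads of XPC and of those transcripts cannot be told apart. RAD23B, the partner that keeps XPC from degradation, rose instead, from 168 ± 8.48 to 198 ± 10.7 CPM (log2 change 0.23, SE 0.05, adjusted p = 0.00742), a call that was lost under quantile normalization (0.13, adjusted p = 0.0891).

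The ligase that marks ultraviolet lesions split by subunit. CUL4A, one of its alternative scaffolds (chromosome 13, 113208193 to 113267108, plus strand), was at 117, 126, 124 and 123 CPM in low and 173, 175, 174 and 182 CPM in high glucose. These values were tight within each group and far apart between them, with a log2 change of 0.52 (SE 0.03, adjusted p = 1.05e-05), or 1.44-fold on the means. The other scaffold, CUL4B, was the more abundant in CPM per kilobase and fell, from 287 ± 8.27 to 254 ± 5.85 CPM (log2 change -0.17, SE 0.03, adjusted p = 0.00168). DDB2, the subunit that binds the lesion, fell from 30.2 ± 2.15 to 24.5 ± 1.93 CPM (-0.29, SE 0.07, adjusted p = 0.0114). Its partner DDB1, which also serves many other substrate receptors, was at 240 to 249 CPM in low and 246 to 266 CPM in high glucose (log2 change 0.06, adjusted p = 0.113).

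RBX1, the RING subunit that recruits the ubiquitin-conjugating enzyme, showed how much the first high glucose library can weigh. Its values were 48.7 to 52.6 CPM in low glucose and 64.7, 48.4, 42.4 and 38.9 CPM in high glucose replicates 1 to 4. The low glucose libraries lay inside the range of the high glucose ones, and the log2 change was -0.09 with a 95% confidence interval of -0.44 to 0.26 (adjusted p = 0.666). RBX1 has the shortest canonical transcript of the members, 1169 bases. Without high glucose replicate 1 it was lower in high glucose (-0.24, adjusted p = 0.0404), without replicate 4 the change was 0.0035, and after removal of the trend with transcript length it was 0.02.

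In the transcription-coupled branch, 0 of 4 genes were higher and 2 were lower. This called share was below that of genes of at least 5 CPM, of which 66.9% were called (33.6% higher and 33.3% lower). The branch was not tested against those genes. UVSSA, which stabilizes ERCC6 at the stalled polymerase and brings in TFIIH (chromosome 4, 1342011 to 1395989, plus strand), was at 31.8, 35.1, 34.1 and 34.6 CPM in low glucose and at 16.9, 23.2, 22.4 and 23.5 CPM in high glucose. The groups were clearly apart, and replicate 1 of high glucose gave the lowest value. The log2 change was -0.65 (SE 0.10, adjusted p = 0.00178). ERCC8, the substrate receptor of the branch's own CUL4 ligase (chromosome 5, 60866454 to 60945070, minus strand), was at 15.9, 13.8, 14.02 and 16.1 CPM in low and 11.8, 9.85, 11.1 and 10.2 CPM in high glucose. Again no high glucose library reached a low glucose one (log2 change -0.44, SE 0.08, adjusted p = 0.00246), and an annotated antisense transcript overlaps ERCC8 exons.

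ERCC6, the DNA-dependent ATPase that recognizes the stalled polymerase, was at 18.9 to 23.5 CPM in low glucose and at 21.0, 27.3, 29.3 and 28.4 CPM in high glucose. Replicates 2 to 4 of high glucose were above every low glucose library and replicate 1 was not, and the log2 change of 0.27 missed the threshold (adjusted p = 0.0954). Without that replicate it was 0.37 (adjusted p = 0.00747). XAB2, a splicing factor that binds XPA, was at 42.2 to 49.9 CPM in low and 46.7 to 58.0 CPM in high glucose (0.16, adjusted p = 0.157). XPA fell, from 13.9 to 16.0 CPM in low glucose to 10.8 to 13.3 CPM in high glucose (log2 change -0.27, SE 0.07, adjusted p = 0.0177), and the call was lost under quantile normalization (-0.17, adjusted p = 0.0931) and after removal of the length trend (-0.16, adjusted p = 0.115).

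TFIIH consists of a core of 7 subunits and a kinase module of 3. In the core, 1 subunit was higher, 2 were lower and 4 did not pass the test, whereas all 3 subunits of the kinase module were higher. Of genes of at least 5 CPM, 33.6% were called higher and 33.3% lower. GTF2H1 (p62), the core subunit that XPC and UVSSA bind and through which they recruit the complex (chromosome 11, 18322567 to 18367045, plus strand), had the largest change of all members. Low glucose replicates 1 to 4 were at 66.2, 67.7, 64.8 and 63.7 CPM and high glucose replicates at 142, 139, 148 and 147 CPM. Each high glucose value was more than double any low glucose value, a 2.19-fold rise of the mean (log2 change 1.12, SE 0.03, adjusted p = 8.55e-07). Over all 17 other settings, its change stayed between 1.02 and 1.16.

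The smallest core subunit moved in the opposite direction. GTF2H5 (TTDA, p8), which stabilizes the complex (chromosome 6, 158168350 to 158199344, plus strand), was at 20.6, 19.6, 21.1 and 20.6 CPM in low and 13.8, 12.5, 13.5 and 11.02 CPM in high glucose. Its mean fell by 37.9% with no overlap (log2 change -0.65, SE 0.07, adjusted p = 0.000257). GTF2H3 (p34), a structural subunit (chromosome 12, 123633829 to 123662604, plus strand), was at 38.8, 39.4, 34.7 and 38.1 CPM in low and 27.5, 29.8, 23.4 and 28.3 CPM in high glucose. Its groups were also apart, at -0.46 (SE 0.08, adjusted p = 0.00226), and 12.2% of the 31-base words of its exons occur in other genes.

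The remaining core subunits did not pass the test. ERCC3, the translocase that opens promoters and lesions, was at 45.4 to 51.6 CPM in low and 44.8 to 52.3 CPM in high glucose, a log2 change of 0.03 with a 95% confidence interval of -0.12 to 0.19. For ERCC2, the helicase used in repair, low glucose libraries were at 29.1 to 32.2 CPM and high glucose libraries at 23.9 to 31.1 CPM (-0.15, interval -0.34 to 0.03, adjusted p = 0.157). GTF2H4 (p52), the activator of ERCC3, gave -0.06 (interval -0.22 to 0.09). GTF2H2 (p44), the activator of ERCC2, gave -0.14 (interval -0.34 to 0.06), and -0.21 without high glucose replicate 4 (adjusted p = 0.0431). The values of both of these are uncertain, since most of their 31-base words occur in other genes. The share was 96.4% for GTF2H2, with most matches in its copy GTF2H2C, itself at 17.1 to 24.1 CPM and not called. It was 96.2% for GTF2H4, with most matches in an overlapping transcript.

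The kinase module phosphorylates the tail of RNA polymerase II at the start of transcription and, apart from TFIIH, activates cell cycle kinases. Its catalytic subunit is CDK7 (chromosome 5, 69234795 to 69277430, plus strand), measured at 23.8, 23.4, 22.8 and 22.4 CPM in low and 34.8, 28.9, 30.6 and 31.1 CPM in high glucose. The groups did not overlap (log2 change 0.42, SE 0.06, adjusted p = 0.000689). Of its 31-base words 13.6% occur in other genes, with most matches in a pseudogene. CCNH, cyclin H, its activating partner (chromosome 5, 87311471 to 87412930, minus strand), was at 25.5, 24.6, 25.9 and 24.8 CPM in low and 47.4, 41.5, 40.0 and 41.0 CPM in high glucose. This was a 1.69-fold rise, again without overlap (log2 change 0.73, SE 0.05, adjusted p = 4.24e-05), and an opposite-strand transcript overlaps its exons. MNAT1 (MAT1), the assembly factor that ties kinase and cyclin to the core (chromosome 14, 60734761 to 60969965, plus strand), rose from 13.1 to 15.4 CPM in low glucose to 17.5 to 20.3 CPM in high glucose (log2 change 0.40, SE 0.06, adjusted p = 0.00163). High glucose replicate 1 was the highest library for all 3 genes. Left out, the changes still passed the test, as they did in every other alternative, with ranges of 0.37 to 0.53 for CDK7, 0.68 to 0.84 for CCNH and 0.36 to 0.48 for MNAT1.

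**Figure D2:**
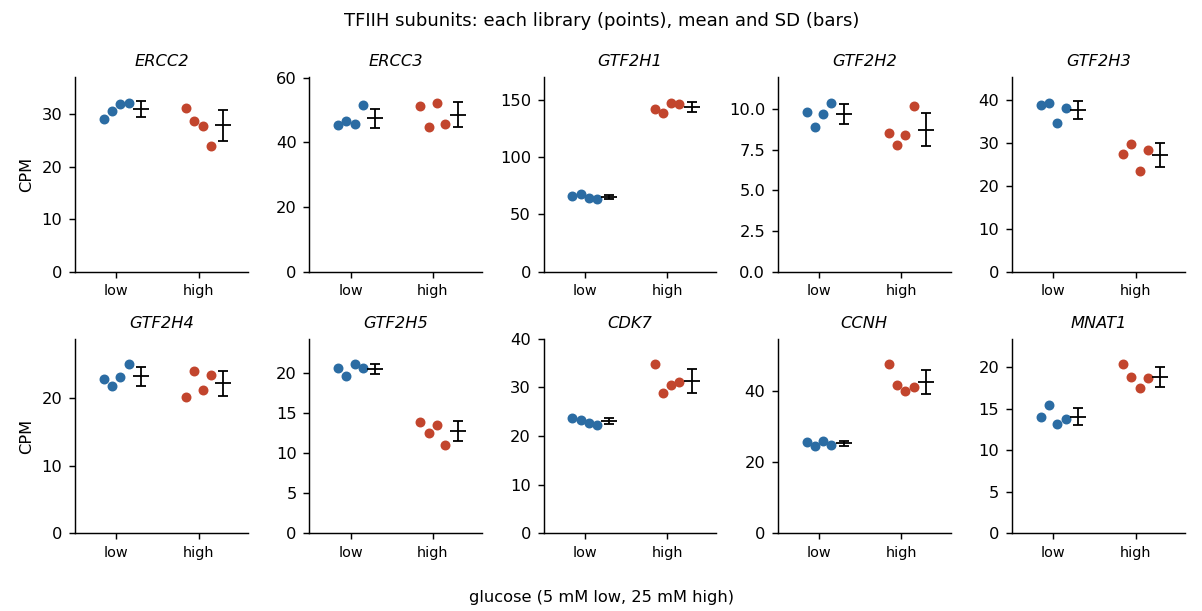
CPM of the 10 TFIIH subunits in each library (points, replicates 1 to 4 from left to right within each group), with the mean and SD beside them, at 5 mM and 25 mM glucose. GTF2H1, CDK7, CCNH and MNAT1 are higher in every high glucose library, GTF2H3 and GTF2H5 are lower, and the other 4 overlap.

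The promoters of the subunits that moved together, those of the kinase module and GTF2H1, are shown with that of CETN2, the member with the largest fall, to let their letters be compared. Each is the stretch of 250 bases that ends just before the gene's farthest upstream RefSeq start (GRCh38.p14), read 5′ to 3′ on the gene's strand, and capitals mark matches to the motifs searched. The positions are chr5:69234545-69234794 (plus) for CDK7, chr5:87412931-87413180 (minus) for CCNH, chr14:60734511-60734760 (plus) for MNAT1, chr11:18322317-18322566 (plus) for GTF2H1 and chrX:152830758-152831007 (minus) for CETN2.
CDK7: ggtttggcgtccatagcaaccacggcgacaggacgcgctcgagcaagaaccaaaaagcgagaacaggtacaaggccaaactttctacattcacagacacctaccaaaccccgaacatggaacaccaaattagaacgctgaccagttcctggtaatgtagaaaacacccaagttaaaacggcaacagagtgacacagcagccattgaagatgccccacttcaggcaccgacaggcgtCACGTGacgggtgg
CCNH: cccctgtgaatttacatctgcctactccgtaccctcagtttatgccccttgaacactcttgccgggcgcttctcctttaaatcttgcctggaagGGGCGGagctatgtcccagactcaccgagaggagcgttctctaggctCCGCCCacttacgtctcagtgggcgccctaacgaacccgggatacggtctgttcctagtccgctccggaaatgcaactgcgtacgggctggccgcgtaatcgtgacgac
MNAT1: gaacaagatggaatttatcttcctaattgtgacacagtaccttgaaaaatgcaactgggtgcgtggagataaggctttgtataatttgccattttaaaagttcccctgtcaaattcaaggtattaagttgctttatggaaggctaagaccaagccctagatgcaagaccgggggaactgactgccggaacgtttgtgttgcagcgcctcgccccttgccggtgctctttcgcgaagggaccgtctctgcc
GTF2H1: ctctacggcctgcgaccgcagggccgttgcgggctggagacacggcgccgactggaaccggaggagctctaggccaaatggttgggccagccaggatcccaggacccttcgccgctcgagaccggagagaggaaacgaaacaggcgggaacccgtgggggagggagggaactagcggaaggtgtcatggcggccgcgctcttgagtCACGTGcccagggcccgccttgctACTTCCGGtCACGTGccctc
CETN2: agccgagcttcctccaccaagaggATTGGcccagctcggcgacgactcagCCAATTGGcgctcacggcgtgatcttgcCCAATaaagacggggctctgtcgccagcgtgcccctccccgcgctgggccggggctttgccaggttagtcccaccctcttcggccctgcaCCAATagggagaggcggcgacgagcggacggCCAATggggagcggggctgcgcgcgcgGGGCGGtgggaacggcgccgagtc

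The search covered 7 motifs on both strands, namely the CCAAT box (CCAAT), the GC box (GGGCGG), the cyclic AMP response element (TGACGTCA), an ETS site (CCGGAAGT), E2F sites (TTTGGCGC, TTTCCCGC or TTTCGCGC), the TATA box (TATAAA) and the E box (CACGTG). An E box ended 8 bases before the CDK7 start, and GTF2H1 held E boxes ending 38 and 5 bases before its start with an ETS match between them. CCNH held 2 GC boxes and MNAT1 none of the 7 motifs, so no motif searched was common to the kinase module. CETN2 held 6 CCAAT matches, 2 of them overlapping on opposite strands, and 1 GC box. RefSeq windows were matched for 32 of the 34 genes (45 windows), the exceptions being RPA2 and RPA3. The E box was in 17.8% of these windows and 6.34% of all 35116 windows of the same length, the ETS site in 13.3% and 3.42%, the GC box in 60.0% and 42.6%, the CCAAT box in 31.1% and 32.0%, and the TATA box in 0% and 10.7%. Among called members, the E box was in 2 higher and 2 lower ones, and the ETS site in 3 higher and 1 lower. The 35116 windows were not limited to genes of at least 5 CPM. A match is a description of letters and was not tested as a binding site.

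All 3 nucleases had lower means in high glucose, and 2 of them passed the test, 66.7% beside 66.9% of genes of at least 5 CPM. ERCC1, the DNA-binding, noncatalytic part of the nuclease that cuts 5′ of the lesion (chromosome 19, 45407334 to 45451547, minus strand), was at 21.3, 26.2, 22.1 and 24.0 CPM in low and 18.8, 15.2, 17.6 and 15.7 CPM in high glucose. No libraries overlapped (log2 change -0.45, SE 0.09, adjusted p = 0.00454). An exon of POLR1G, which the table lists as CD3EAP, overlaps ERCC1 on the opposite strand, and that gene rose from 4.24 ± 0.989 to 10.9 ± 0.779 CPM (1.20, SE 0.14, adjusted p = 0.000388). The part of its reads in the ERCC1 values was not tested. ERCC4, the catalytic part, was at 21.1 to 25.1 CPM in low and 16.2 to 21.8 CPM in high glucose, with high glucose replicate 4 inside the low glucose range (-0.29, SE 0.10, adjusted p = 0.0422). That call held in 8 of 17 alternatives and was lost when any of low glucose replicates 2, 3 or 4 or high glucose replicates 1, 2 or 3 was left out (adjusted p = 0.0719 to 0.104).

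ERCC5, the nuclease that cuts 3′ of the lesion, was at 69.3 to 76.9 CPM in low glucose and at 52.98, 57.4, 58.9 and 74.8 CPM in high glucose. High glucose replicate 4 lay inside the low glucose range while the other 3 were below it, and the change of -0.26 did not pass (adjusted p = 0.0784). Without that library it was -0.36 (adjusted p = 0.00206), and ERCC5 passed in 6 of 17 alternatives. Of the 31-base words of ERCC5, 91.6% occur in other genes, with most matches in a readthrough transcript of BIVM and ERCC5. That transcript was listed at 0 in 6 of the libraries and at 0.94 CPM or less in the rest.

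**Figure D3:**
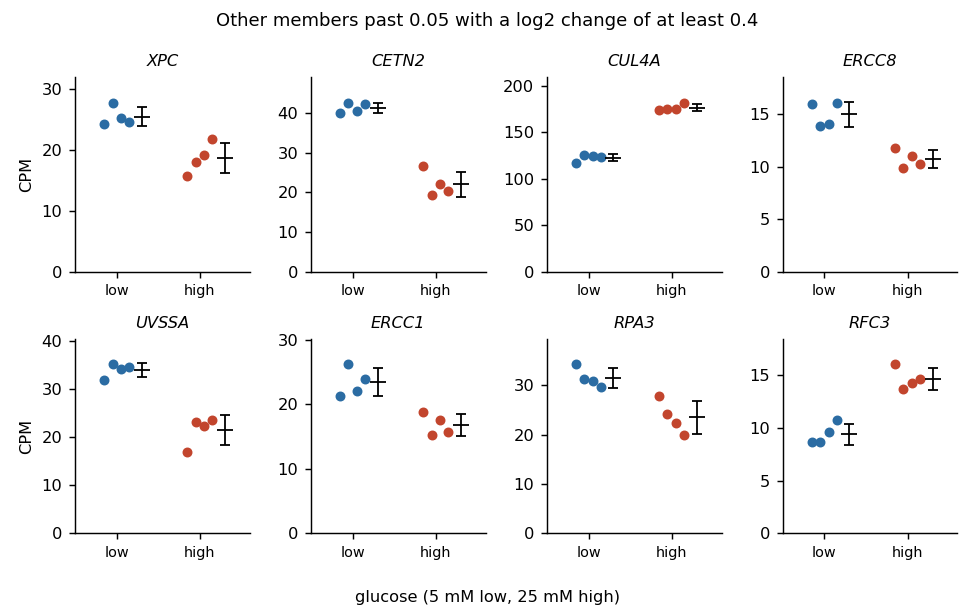
CPM in each library (points, replicates 1 to 4 from left to right) with the mean and SD for the 8 members outside TFIIH with an adjusted p under 0.05 and an absolute log2 change of 0.4 or more. CUL4A and RFC3 are higher in every high glucose library and the other 6 are lower.

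The single-strand binding complex RPA showed a change in each direction. RPA3 (RPA14), the smallest subunit (chromosome 7, 7636518 to 7718607, minus strand), was at 34.3, 31.2, 30.8 and 29.6 CPM in low and 27.8, 24.1, 22.3 and 19.8 CPM in high glucose. The groups were apart by a small gap, from 27.8 to 29.6 CPM, with a log2 change of -0.41 (SE 0.10, adjusted p = 0.0122). UMAD1 overlaps RPA3 exons on the opposite strand and rose from 25.1 ± 1.49 to 37.2 ± 2.97 CPM (0.55, SE 0.07, adjusted p = 0.000447). RPA2 (RPA32), the subunit phosphorylated upon DNA damage, rose from 30.8 to 37.02 CPM in low glucose to 39.9 to 46.7 CPM in high glucose (log2 change 0.39, SE 0.07, adjusted p = 0.00318). RPA1 (RPA70), the main DNA-binding subunit, was at 78.5 to 83.7 CPM in low and 81.1 to 87.8 CPM in high glucose (0.06, interval -0.01 to 0.14, adjusted p = 0.165).

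The clamp loader RFC had 4 of 5 subunits higher and 0 lower, and 1 of the 4 calls, that of RFC1, held in 8 of 17 alternatives. Among genes of at least 5 CPM, 33.6% were called higher and 33.3% lower. The 5 subunits were not tested against those genes. RFC3, a small subunit common to the replicative loader and its alternatives (chromosome 13, 33818149 to 33977377, plus strand), was at 8.67, 8.61, 9.60 and 10.7 CPM in low and 16.0, 13.6, 14.3 and 14.6 CPM in high glucose. It was the least abundant RFC gene per kilobase and the one that rose most, 1.56-fold without overlap (log2 change 0.59, SE 0.08, adjusted p = 0.000828). RFC5 rose by 0.31 (SE 0.05, adjusted p = 0.00255), and RFC4 by 0.16 (SE 0.04, adjusted p = 0.00856). RFC1, the large subunit that is specific to the replicative loader, went from 76.0 ± 1.19 to 87.0 ± 8.14 CPM (0.19, SE 0.06, adjusted p = 0.0462). That call was lost without any 1 of the 4 low glucose libraries or of high glucose replicates 2, 3 and 4 (adjusted p = 0.0626 to 0.107), and under quantile normalization (0.08, adjusted p = 0.328). RFC2 gave 0.07 (interval -0.08 to 0.22, adjusted p = 0.427).

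RPA and RFC also serve DNA replication. Of 10 replication markers 6 rose and 1 fell, a called share of 70% beside 66.9% for genes of at least 5 CPM. The risers with the smallest adjusted p were MCM4 (log2 change 0.65, adjusted p = 1.99e-06), MCM7 (0.62, adjusted p = 1.86e-05) and MCM3 (0.50, adjusted p = 4.44e-05), helicase subunits, while MCM6 of the same helicase fell (-0.18, adjusted p = 0.0411). The summed level of the 10 was 729 to 740 CPM in low glucose and 963 to 1027 CPM in high glucose, and their part in the values of the RPA and RFC genes was not tested. Of the 5 genes of alternative clamp loaders, ATAD5, which unloads PCNA, rose (0.90, adjusted p = 0.000108), as did DSCC1 (0.20, adjusted p = 0.0311), CHTF8 fell (-0.29, adjusted p = 0.0211), and RAD17 and CHTF18 did not pass.

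Subunits that work as partners were compared as log2 ratios within each library, which do not depend on how a library was scaled apart from the added 1 CPM. Of 10 pairs, 7 differed between groups by an exact two-sided permutation test (p = 0.0286, the smallest that 8 libraries in 2 groups of 4 allow, adjusted p = 0.0408 over the 10 pairs). The pairs were chosen with earlier results of these data known, other pairs of genes were not examined, and single genes of at least 5 CPM had groups without overlap in 65.0% of cases. The widest was GTF2H1 to GTF2H4, at 1.31 to 1.59 in low and 2.48 to 2.76 in high glucose, a change of 1.19. The ratio of XPC to RAD23B fell by 0.67, from a mean of -2.68 to -3.34. Those of ERCC6 to ERCC8 and of CUL4A to CUL4B rose by 0.72 and 0.70, and that of DDB1 to DDB2 by 0.36. Within the kinase module CDK7 to CCNH fell by 0.30, and RPA1 to RPA2 fell by 0.33.

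The helicases ERCC2 and ERCC3 differed by -0.19 (adjusted p = 0.107), ERCC1 and ERCC4 by -0.16 (adjusted p = 0.317) and RFC1 and RFC4 by 0.02 (adjusted p = 0.743). These exact tests do not show that the partners changed alike. The first reached -0.24 without high glucose replicate 2 and the second -0.28 without high glucose replicate 1, each at an adjusted p of 0.0357 in the exact test. Without any 1 low glucose library, the adjusted p of the 7 ratios that had passed was 0.0571 to 0.0816, with each change in its direction (for GTF2H1 to GTF2H4 1.14 to 1.23), and without any 1 high glucose library it was 0.0357 to 0.0408. With so few libraries, the adjusted p of a pair also depends on how many other pairs reach the smallest possible p. The lost calls therefore cannot show that a ratio rests on 1 library.

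**Figure D4:**
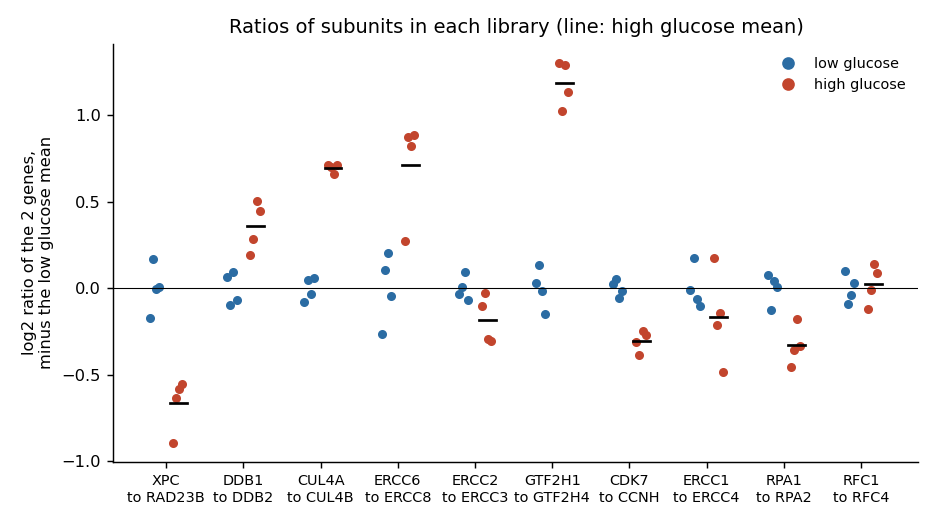
The log2 ratio of each of 10 pairs of partner genes in each library, from log2(CPM + 1), less the mean of the low glucose libraries (points, with a line at the high glucose mean). For 7 pairs the groups separate, most widely for GTF2H1 to GTF2H4 (1.19), and for ERCC2 to ERCC3, ERCC1 to ERCC4 and RFC1 to RFC4 they overlap.

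Genes that act with these factors were counted in the same fit. Of 8 other general transcription factors, which build the promoter complex that TFIIH joins, 6 were higher and 0 lower in high glucose, 75.0% called where 66.9% of genes of at least 5 CPM were. They included GTF2A2 (log2 change 0.40, adjusted p = 0.000397), GTF2A1 (0.26, adjusted p = 0.000674) and TBP, the TATA-binding protein (0.27, adjusted p = 0.00162). Their summed level was 260 to 272 CPM in low and 292 to 311 CPM in high glucose. Of 28 other genes of excision repair and its gap filling, 8 were higher and 10 lower, a called share of 64.3%, close to that of genes of at least 5 CPM. POLE3, a histone-fold subunit of polymerase epsilon (0.64, adjusted p = 2.28e-05), PCNA, the sliding clamp that RFC loads (0.78, adjusted p = 0.000149), and COPS3 of the signalosome (0.41, adjusted p = 0.000237) were the higher genes with the smallest adjusted p. The corresponding lower genes were COPS7A (-0.57, adjusted p = 0.000102) and COPS6 (-0.48, adjusted p = 0.000695), signalosome subunits as well, and POLD4, the small subunit of polymerase delta (-0.94, adjusted p = 0.00172). The signalosome removes NEDD8 from the cullins and thus holds CUL4 ligases inactive.

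DDB2 and XPC, which both fell, are known targets of the transcription factor p53. Of 12 other p53 targets 5 were higher and 4 lower, 75.0% called beside 66.9% of genes of at least 5 CPM, with a median log2 change of 0.03. PPM1D (1.12, adjusted p = 6.22e-06), ZMAT3 (1.05, adjusted p = 1.29e-05) and CDKN1A, the p21 inhibitor of cell cycle kinases (1.21, adjusted p = 5.4e-05), rose, whereas BTG2 (-1.06, adjusted p = 4.09e-06), TP53INP1 (-0.57, adjusted p = 3.29e-05) and FDXR (-0.63, adjusted p = 0.0125) fell. The summed level of the 12 was 407 to 420 CPM in low and 472 to 489 CPM in high glucose, and its part in the values of DDB2 and XPC was not tested.

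Levels of different genes were set side by side per kilobase of the canonical transcript, on the mean CPM of each group, which leaves out other isoforms. In low glucose they ran from 57.5 CPM per kilobase for DDB1 and 48.5 for CUL4B to 1.59 for ERCC8 and 2.41 for ERCC6. The canonical transcripts of ERCC8 (9414 bases) and ERCC6 (9001 bases) are the longest of the members, so these low values depend on the transcript chosen. The other transcription-coupled genes, UVSSA (7.11) and XAB2 (17.8), were above XPC (6.98), the lowest of the global genome branch. Within TFIIH the low glucose levels of GTF2H1 (21.8), CCNH (19.7), ERCC3 (17.4) and CDK7 (16.2) were the highest, and GTF2H5 (2.74), whose canonical transcript of 7483 bases is long for so small a protein, and MNAT1 (5.30) were the lowest. In high glucose GTF2H1 reached 47.8 and CCNH 33.2 while GTF2H5 fell to 1.70, so the subunits of this complex lay further apart in high than in low glucose.

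**Figure D5:**
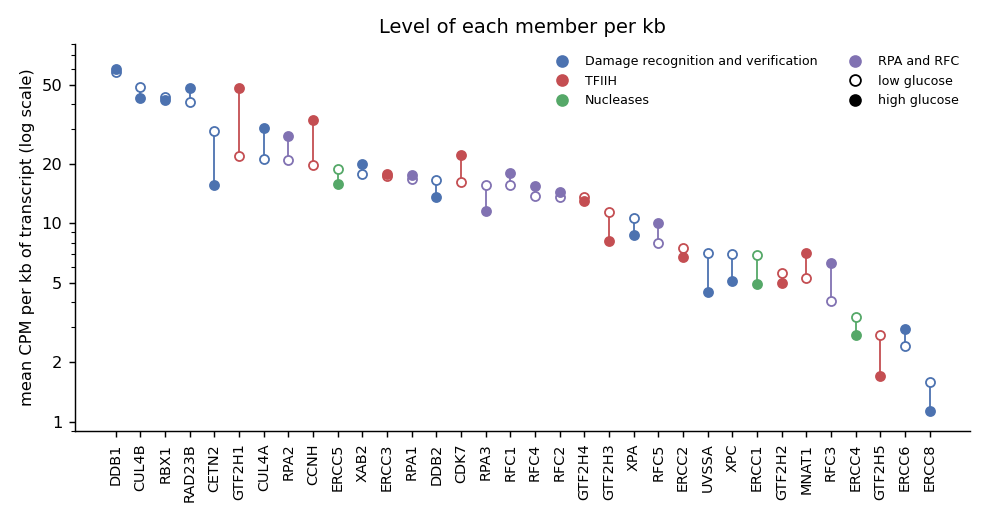
Mean CPM per kilobase of canonical transcript for each member on a log scale, in low (open) and high glucose (filled), in the order of the low glucose level and coloured by role. DDB1 at 57.5 and ERCC8 at 1.59 bound the low glucose levels, and GTF2H1 passes from 21.8 to 47.8.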

How the data were processed

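The study sequenced RNA from MDA-MB-157 cells, with 4 libraries at 5 mM and 4 at 25 mM glucose. Values in the table deposited by the authors are CPM (reads of a gene per 1000000), adjusted with edgeR's TMM factors. The submitters' notes name the hg38 build. The paper's methods, written first for tumors, name a stranded library kit, TopHat and the hg19 build with an Ensembl annotation. Which of these apply to the table, and whether its counting used the strand, is not established. In each library 74.4% to 76.3% of low values were whole multiples of 1 read, so whole reads were not recovered and no count test was run. Intervals and floors from reads cover counting error only. The labels do not say whether replicates were separate cultures, so p-values may measure technical spread.

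Of 21077 table lines, 18 Y copies of pseudoautosomal genes, identical to the X copies, were left out. All 21059 genes, 856 of them at 0 throughout, were fitted on log2(CPM + 1) with limma 3.58.1 in R 4.3.3 (lmFit, eBayes with trend, two-sided, no covariate), with Benjamini-Hochberg adjustment over all of them. The fit was tested on simulated data. A fold change on this scale understates that of low genes. Ratios of 10 subunit pairs were compared by exact permutation (scipy 1.17.1). Transcript lengths, overlaps and shared 31-base words came from GENCODE transcripts mapped to GRCh37, and gene positions and promoters from RefSeq on GRCh38.p14. Transcripts on the opposite strand overlap exons of 8 members, namely XPC, ERCC8, ERCC2, CCNH, ERCC1, ERCC4, RPA3 and RFC5. In 7 members, namely GTF2H2, GTF2H3, GTF2H4, CDK7, ERCC5, RPA2 and RFC2, over 10% of the 31-base words occur in other genes. The part of such reads in the members' values was not tested. Members with an adjusted p under 0.05 and an absolute log2 change of at least 0.4 are given in every library, the others by means or ranges, and of each other list at most 3 genes in each direction by adjusted p. MNAT1, just under that change before rounding, is among the others. The members, lists and pairs were chosen with earlier results of these data known. Alternatives were a pseudocount of 0.1, minimum means of 1 and 5 CPM, median-of-ratios, equal-total and quantile scaling, a replicate block, array weights, removal of the trend with transcript length (spline of 5 degrees of freedom) and leaving out each library.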

Additional observations from a re-analysis of the deposited data

Results flagged for a closer look

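Dixon's gap ratio, which sets the distance of the highest or lowest of 4 libraries from its neighbour against the whole range, was computed for each of the 34 genes in each group, 68 groups of 4 in all. It passed the 95% critical value for 4 samples once, where chance gives about 3.4. The value was 0.83, for UVSSA in high glucose replicate 1, which measured 16.9 CPM beside 22.4 to 23.5 CPM in replicates 2 to 4 and 31.8 to 35.1 CPM in low glucose. That library is also the one whose values deviated with transcript length. UVSSA was lower in high glucose in all 17 alternatives, including the one without that library, with a log2 change of -0.69 to -0.54.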

How the results depend on the processing

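Of the 23 genes called, 19 were called in each of the 17 alternatives, and the number called was 20 to 25. ERCC2, ERCC3, GTF2H4 and RFC2 were called in none. The calls of RAD23B, XPA, ERCC4 and RFC1 were lost in some. The 2 nucleases called became 1 under median-of-ratios scaling and under equal totals, and 1 to 3 when 1 library was left out. They became 3 with minimum means of 1 and 5 CPM, with array weights and with the length trend removed, where ERCC5 passed. Signs turned only for changes near 0 or a ratio near 0. Under quantile normalization DDB1 gave -0.0071, ERCC3 -0.03, RPA1 -0.04 and RFC1 to RFC4 -0.14. With the length trend removed RBX1 gave 0.02, GTF2H4 0.02, RFC1 to RFC4 -0.10, and ERCC2 to ERCC3 passed at -0.23. ERCC3 was -0.0053 without high glucose replicate 3, RBX1 0.0035 without high glucose replicate 4, and RFC1 to RFC4 -0.01 without low glucose replicate 2 and -0.01 without high glucose replicate 3. The cause was not tested.

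When 1 library was left out, the ratios changed by -0.72 to -0.59 (XPC to RAD23B), 0.31 to 0.41 (DDB1 to DDB2), 0.67 to 0.72 (CUL4A to CUL4B), 0.63 to 0.86 (ERCC6 to ERCC8), 1.14 to 1.24 (GTF2H1 to GTF2H4), -0.32 to -0.28 (CDK7 to CCNH), -0.38 to -0.29 (RPA1 to RPA2), -0.24 to -0.14 (ERCC2 to ERCC3), -0.28 to -0.06 (ERCC1 to ERCC4) and -0.01 to 0.07 (RFC1 to RFC4). No ratio passed when a low glucose library was left out (adjusted p of the 7 that had passed 0.0571 to 0.0816 in the exact test), and the 7 passed when a high glucose library was (0.0357 to 0.0408). Since the adjusted p of a pair also depends on how many other pairs reach the smallest possible p, this cannot show that a ratio rests on 1 library.

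Same-numbered libraries showed little shared deviation (correlations 0.0692, -0.028, 0.0136 and -0.0403). This cannot decide whether the replicate numbers pair the samples, since high glucose replicate 1 also deviated with transcript length. The labels do not state a pairing. With the replicate number as a block, 23 members were called, with ERCC6 gained (0.27, adjusted p = 0.012) and RFC1 lost (0.19, adjusted p = 0.0804), and 8921 genes against 9849 without it. Depth limits small changes of the low genes, with a counting error of up to 10.1%.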
